A study of Populus tremula x Populus alba with 20 samples.

Results

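Apical buds of hybrid poplar that overexpressed TEML1 were compared with wild-type buds after chilling. TEML1ox stands for the lines TEML1_1ox and TEML1_2ox, with 2 libraries each, and WT for the 2 wild-type libraries of the same harvest. These 6 libraries, chosen by their genotype and treatment labels, are 6 of the 20 in the series. Plants were of the Populus tremula x Populus alba INRA clone 717 1B4. They were grown in long days at 22 °C, for 6 weeks by the design text and 4 weeks by the protocol. Short days followed for 8 weeks until growth had ceased and buds had set. The chilled groups (CH2) had 2 further weeks of short days at 4 °C. The remaining chilled libraries came from the lines TEML2_1ox and TEML2_2ox (TEML2ox), which overexpress a second TEMPRANILLO-like protein. A harvest of all 5 genotypes without chilling (SD8) was made after the 8 weeks. The promoter of the transgenes and the cells in which it acts are not given in the labels. A replicate is a pool, described as 3 buds in one place and 2 plants in another, and the labels call the 2 replicates biological.

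TEMPRANILLO proteins belong to the RAV family of plant transcription factors, which carry an AP2 domain and a B3 domain. In Arabidopsis they are known as repressors of flowering that act on the florigen gene FT and on gibberellin synthesis. In poplar, short days stop growth, the apex closes into a bud and becomes dormant, and a long period of cold then releases the bud so that it can grow again in warmth. Gibberellins, abscisic acid, the closing and opening of plasmodesmata and FT-like genes are known to take part in this cycle. The series title places TEMPRANILLO-like proteins in the release of dormancy, and buds at CH2 had received part of the cold that brings it about. The count tables pair no gene name with the identifiers, so TEML1 itself, members of these pathways and markers of the apical bud are not singled out by name. Genes are given by identifier. Buds were measured in bulk, and fewer cells of a type and less RNA per cell cannot be told apart.

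The 6 libraries lay close together. The median absolute difference in log2 CPM (counts per 1000000, scaled by TMM) between replicates of a line was 0.094 to 0.114 over 20327 genes, 0.12 to 0.165 between libraries of the 2 TEML1ox lines and 0.146 to 0.171 between a TEML1ox and a WT library. In a principal component analysis of the 6 libraries the first component held 32.3% of the variance. The WT libraries were lowest on it, at -32.3 and -35.7, the TEML1_2ox libraries lay at -4.36 and 9.43, and the TEML1_1ox libraries at 40.0 and 22.9. On the second component, with 24.5%, TEML1_2ox replicate 1 stood apart at -46.7, with the other 5 between -14.2 and 21.4.

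Between chilled TEML1ox and WT buds 959 of 25696 genes, or 3.73%, differed (edgeR quasi-likelihood test, adjusted p under 0.05). Of these 595 were higher in TEML1ox (2.32% of genes tested) and 364 lower (1.42%). Most of the differences were modest: 76.5% of the higher and 66.5% of the lower genes differed by less than 1.5-fold. A difference of 2-fold or more was reached by 46 of the 364 lower genes (12.6%) and 44 of the 595 higher genes (7.39%). The median absolute log2 fold change was 0.41 for the higher and 0.43 for the lower genes, against 0.15 over all genes tested. In 6 of the 959 genes one of the groups had 0 counts, and both medians were the same with these genes set to a bound of 3 counts over that group. In 2 of the 6 all TEML1ox libraries had 0 counts. WT had 337 and 375 counts of PtXaAlbH.07G094900.v5.1 and 258 and 262 of PtXaAlbH.18G093200.v5.1, at least 482-fold and 352-fold more by that bound. In the other 4 both WT libraries had 0 counts, and the TEML1ox means were only 0.208 to 0.288 CPM. All 959 had no overlap between the 4 TEML1ox and 2 WT libraries, but 15.1% of all genes tested had every TEML1ox library above both WT libraries and 14.2% had every one below. The count rested on both WT libraries, with 11 genes left without WT replicate 1 and 30 without WT replicate 2. It was 384 without TEML1_2ox replicate 2, 638 without TEML1_1ox replicate 1 and 241 in a fit of the 6 libraries alone.

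**Figure D1:**
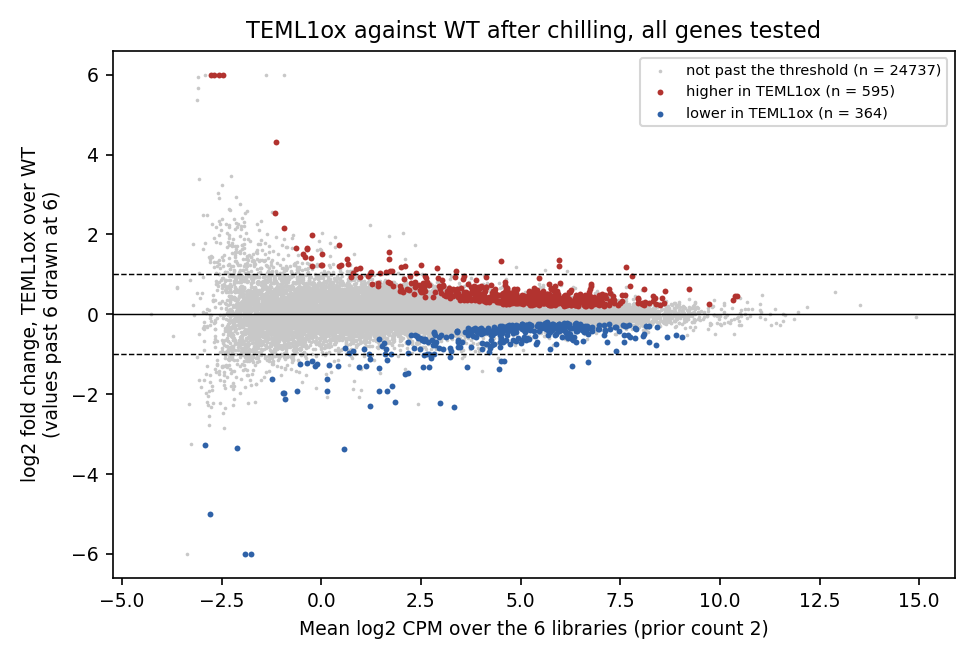
Each point is a gene tested, with its mean log2 CPM over the 6 chilled libraries on the x axis and its log2 fold change of TEML1ox over WT on the y axis. Red points (595) were higher and blue points (364) lower past the threshold, and most lie within the dashed lines at 2-fold. At low levels large fold changes mostly did not pass.

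The differences were spread over the range of read levels. CPM is not scaled by gene length, so these classes mix the level and the length of a transcript. Among the 1971 genes at 100 CPM or more, 4.16% were higher and 2.18% lower, and among the 12114 genes at 10 to 100 CPM, 3.43% and 2.01%. At 1 to 10 CPM the shares were 1.03% and 0.808%, and under 1 CPM 0.42% and 0.364%. The size of the called differences went the other way, from a median absolute log2 fold change of 0.34 for the higher and 0.41 for the lower genes in the top class to 1.98 and 1.91 in the bottom class, where small differences could not be detected at this depth. By the chromosome number in the identifier, the share of genes past the threshold ran from 2.72% on chromosome 17 to 4.78% on chromosome 14. Of 25677 pairs of genes that follow each other in identifier order, 25 had both genes past the threshold in 1 direction and 22 in opposite directions. How many such pairs chance would give was not computed, so neither count is read as clustering.

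Genes named for the comparison with WT had to pass in both lines, with no overlap between TEML1ox and WT libraries. Both traits therefore follow from the choice, and the sizes are what can be read. Among such well-expressed genes, the largest rise was in PtXaAlbH.01G318500.v5.1. It stood at 103 and 99.1 CPM in TEML1_1ox, 67.7 and 78.4 in TEML1_2ox, and 27.3 and 40.4 in WT. All 4 TEML1ox libraries were above both WT libraries, and TEML1_1ox was above TEML1_2ox. The log2 fold change was 1.36 ± 0.19 (SE, as after each log2 value; 4 against 2 libraries; edgeR adjusted p = 0.00562), and the lines did not differ past the threshold (log2 difference 0.47 ± 0.16, edgeR adjusted p = 0.196). PtXaAlbH.04G069800.v5.1 stood at 49.5 and 26.5 CPM in TEML1_1ox, 24.9 and 27.1 in TEML1_2ox and 13.9 and 11.4 in WT. Its rise was carried by every TEML1ox library, with TEML1_1ox replicate 1 well above the other 3. The log2 fold change was 1.34 ± 0.26 (edgeR adjusted p = 0.0193).

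The largest fall among such genes was in PtXaAlbH.08G088900.v5.1, at 3.31 and 5.58 CPM in TEML1_1ox, 7.79 and 7.80 in TEML1_2ox and 30.4 and 30.3 in WT. Every TEML1ox library was far below the WT pair. The log2 fold change was -2.31 ± 0.41 (edgeR adjusted p = 0.0156). PtXaAlbH.02G158400.v5.1 stood at 22.8 and 14.4 CPM in TEML1_1ox, 15.3 and 12.7 in TEML1_2ox and 47.1 and 37.1 in WT. Its log2 fold change was -1.37 ± 0.25 (edgeR adjusted p = 0.0165).

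The largest changes in CPM were in strongly expressed genes and were smaller in fold. PtXaAlbH.06G007700.v5.1 was at 1402 and 1653 CPM in TEML1_1ox, 1470.2 and 1422 in TEML1_2ox and 1085 and 1097 in WT (log2 fold change 0.45 ± 0.10, edgeR adjusted p = 0.0298). PtXaAlbH.08G122800.v5.1 was at 704 and 611 CPM in TEML1_1ox, 719 and 732 in TEML1_2ox and 472 and 423 in WT (log2 fold change 0.63 ± 0.13, edgeR adjusted p = 0.0244). In both genes the lines were alike in level. PtXaAlbH.06G058900.v5.1 was lower, at 442 and 477 CPM in TEML1_1ox, 522 and 416 in TEML1_2ox and 698 and 675 in WT (log2 fold change -0.56 ± 0.09, edgeR adjusted p = 0.0104). PtXaAlbH.11G079700.v5.1 was at 269 and 243 CPM in TEML1_1ox, 321 and 302 in TEML1_2ox and 451 and 514 in WT (log2 fold change -0.77 ± 0.16, edgeR adjusted p = 0.0262). In the latter the TEML1_1ox libraries were the lowest and the TEML1_2ox libraries lay between them and WT.

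**Figure D2:**
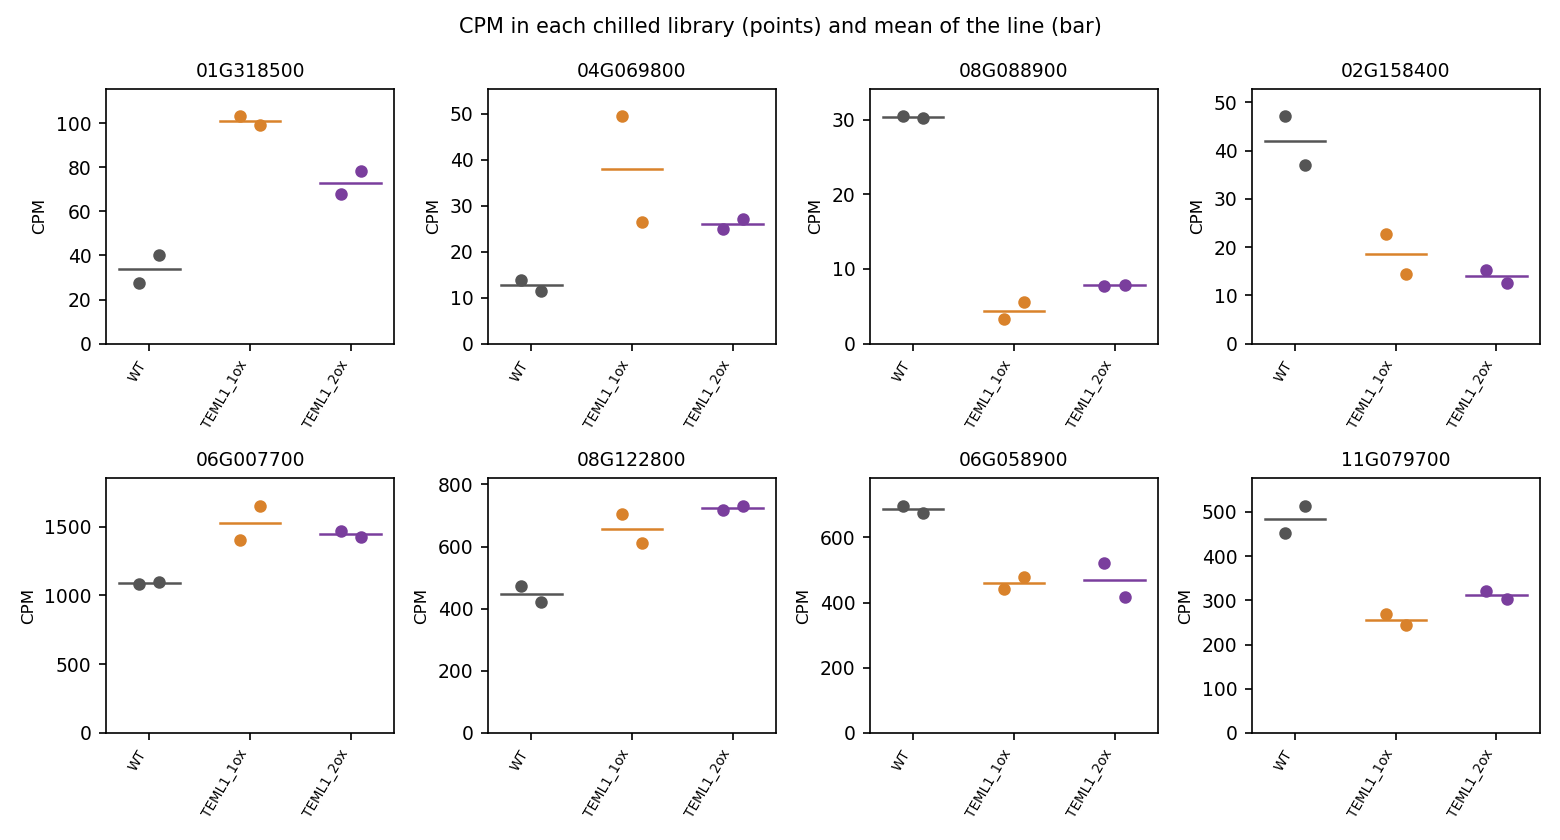
Each panel shows a gene, named by its identifier without the shared prefix and suffix, with CPM on the y axis from 0. Points are the chilled libraries of WT (grey), TEML1_1ox (orange) and TEML1_2ox (purple), and bars are the line means (n = 2). That both TEML1ox lines lie on the same side of WT in all 8 genes follows from the rule by which they were named.

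These 8 genes kept their direction under each alternative tried. Their lack of overlap with WT, part of the naming rule, left little room for another outcome, so this adds no support. Their calls rested on the WT pair. All 8 missed the threshold without WT replicate 1 and 7 without WT replicate 2, where PtXaAlbH.01G318500.v5.1 still passed (edgeR adjusted p = 0.0291). Without TEML1_2ox replicate 2 the 3 genes PtXaAlbH.06G007700.v5.1, PtXaAlbH.08G122800.v5.1 and PtXaAlbH.11G079700.v5.1 missed it as well. PtXaAlbH.04G069800.v5.1 also missed it in limma-voom with lines as a random block (adjusted p = 0.0625) and in the fit of the 6 libraries alone (edgeR adjusted p = 0.065), as did PtXaAlbH.06G007700.v5.1 in the latter (0.0764). The highest edgeR adjusted p over the libraries left out was 0.232 for PtXaAlbH.06G007700.v5.1, 0.228 for PtXaAlbH.08G122800.v5.1, 0.219 for PtXaAlbH.11G079700.v5.1, 0.193 for PtXaAlbH.04G069800.v5.1 and PtXaAlbH.02G158400.v5.1, and 0.154 for PtXaAlbH.08G088900.v5.1 and PtXaAlbH.06G058900.v5.1.

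Fitted as its own group, TEML1_1ox differed from WT at 1624 genes (6.32%) and TEML1_2ox at 1243 (4.84%). Both lines passed in 1 direction at 543 genes (2.11%), 336 of them higher (1.31%) and 207 lower (0.806%), and 0 genes passed in opposite directions. The shared genes were 33.4% of the TEML1_1ox calls and 43.7% of the TEML1_2ox calls. The lines were compared with the same 2 WT libraries, so a deviation of that pair would appear in both lines. The pooled genes all had the same sign in both lines. They were chosen by the pooled test, and in none of them did a TEML1ox library overlap WT. The lines could then not differ in sign, so this adds no support. Of the 595 higher genes, 329 passed in both lines, 115 in TEML1_1ox alone, 104 in TEML1_2ox alone and 47 in neither. Of the 364 lower genes, 197 passed in both, 88 and 48 in 1 line alone and 31 in neither. The sizes were alike, with a median log2 fold change of 0.41 in each line for the higher genes, and of -0.45 in TEML1_1ox and -0.43 in TEML1_2ox for the lower genes. The shared count of 543 fell to 29 without WT replicate 1, 58 without WT replicate 2, 228 without TEML1_1ox replicate 1, 124 and 204 when either TEML1_2ox library was left out, and 286 and 285 when either TEML2_2ox library was.

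**Figure D3:**
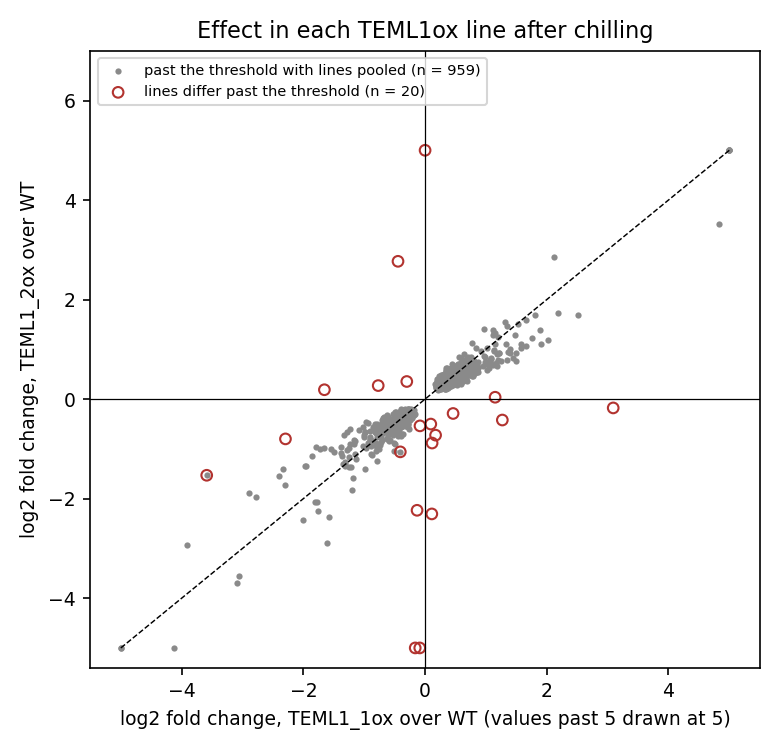
Each point is a gene, with the log2 fold change of TEML1_1ox over WT on the x axis and of TEML1_2ox over WT on the y axis; the WT libraries are shared by both axes. Grey points are the 959 genes past the threshold with lines pooled. Their equal sign in both lines follows from their lack of overlap with WT. What can be read from them is the size in each line. Red circles are the 20 genes at which the lines differed, most of them near an axis.

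The direct test between the lines, which uses no WT library in the contrast, found 20 genes, or 0.0778%. Of these 13 were higher in TEML1_1ox and 7 lower, with a median absolute log2 difference of 1.59. A line differed from WT in all 20, and in 17 only 1 of the lines did, 6 times TEML1_1ox and 11 times TEML1_2ox. The contrasts with WT use the same line libraries, so that a line differed from WT was nearly given by the choice of these genes. Of the genes that passed in 1 line alone, 1081 in TEML1_1ox and 700 in TEML1_2ox, the direct test between the lines passed at these 6 and 11, so the rest are not shown to differ between the lines. The count of 20 was 5 and 3 without WT replicates 1 and 2, 97 without TEML1_1ox replicate 2, 3 without TEML1_2ox replicate 1 and 84 without its replicate 2. It was 47 and 42 when either TEML2_1ox library was left out and 13 when either TEML2_2ox library was.

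One gene was seen almost only in TEML1_2ox. PtXaAlbH.11G123600.v5.1 had 1860 and 2234 counts in the chilled TEML1_2ox libraries and 0 in the other 8 chilled libraries. At SD8 the same line had 3689 and 1982 counts, WT replicate 1 had 6 and the other 7 libraries had 0. The line thus carried this transcript in all 4 of its libraries, at 49.4 and 58.5 CPM at CH2 and 102 and 55.8 at SD8. At CH2 it was at least 1390-fold higher than in TEML1_1ox, against a floor of 3 counts over that group that covers counting error only (edgeR adjusted p = 5.35e-05, and up to 0.00148 over the alternatives). No other gene had at least 10 counts in both chilled libraries of 1 of the 5 genotypes and 0 counts in the other 8.

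The other named differences between the lines were in level. PtXaAlbH.13G071500.v5.1 was at 21.4 and 32.4 CPM in TEML1_1ox and 6.41 and 6.13 in TEML1_2ox, with 30.4 and 28.6 in WT, so that TEML1_1ox lay at the WT level and TEML1_2ox below it (log2 difference between the lines 2.10 ± 0.26, edgeR adjusted p = 0.0206). PtXaAlbH.14G014700.v5.1 was at 35.1 and 28.6 CPM in TEML1_1ox and 7.87 and 11.9 in TEML1_2ox, with 13.9 and 12.5 in WT (log2 difference 1.69 ± 0.19, edgeR adjusted p = 0.0142). Here TEML1_1ox was above WT and TEML1_2ox was not distinguishable from it (edgeR adjusted p = 0.247). PtXaAlbH.03G135900.v5.1 was below WT in both lines and lowest in TEML1_1ox, at 2.11 and 2.13 CPM there, 8.48 and 9.21 in TEML1_2ox and 22.7 and 28.4 in WT (log2 difference -2.06 ± 0.28, edgeR adjusted p = 0.0280). The call of PtXaAlbH.13G071500.v5.1 was lost without either WT or either TEML1_2ox replicate (edgeR adjusted p up to 0.262), that of PtXaAlbH.14G014700.v5.1 without WT replicate 2 or TEML1_2ox replicate 1 (up to 0.127), and that of PtXaAlbH.03G135900.v5.1 without any 1 of the 6 TEML1ox and WT libraries, in limma-voom and in a fit blocked by replicate number (adjusted p up to 0.209).

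Before chilling the same contrast gave no gene past the threshold in the edgeR fit by construct. WT replicate 1 at SD8 was matched to a count column whose name holds 1 digit more than that library's label, so SD8 values of WT carry this doubt; without it the count was also 0. At SD8, 0 of 26947 genes (0%) passed in edgeR. An unadjusted p under 0.05 was reached by 1972, and the adjusted threshold by 71 in DESeq2 and 0 in limma-voom. Genes also passed at SD8 in edgeR with each line as its own group, a count given at the end. The spread in the fits by construct was wider at SD8, with a biological coefficient of variation of 0.191 against 0.106 at CH2. These values include differences between lines of a construct, so they are not the spread of replicates alone. The SD8 libraries are separate samples, and the genes of the CH2 comparison were counted by their sign in them. Of the 595 genes higher at CH2, 341 (57.3%) were above WT at SD8, against 49.9% of all 25371 genes tested at both harvests. Of the 364 lower genes, 229 (62.9%) were below WT, against 50.1%. At an unadjusted p under 0.05, 6.22% of the higher genes were above WT (3.89% of all genes) and 9.89% of the lower genes below it (3.54% of all). The median log2 fold changes at SD8 were 0.03 and -0.08. Across all genes tested at both harvests the log2 fold changes correlated at r = 0.22, and across the 959 genes at r = 0.08, where genes are not independent replicates.

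Individual genes differed in how far the SD8 libraries matched. PtXaAlbH.08G088900.v5.1, low in chilled TEML1ox buds, was at 2.03 and 1.29 CPM in TEML1_1ox, 3.43 and 5.35 in TEML1_2ox and 21.3 and 13.6 in WT at SD8, a log2 fold change of -2.53 ± 0.74 that did not pass (edgeR adjusted p = 0.673). PtXaAlbH.08G122800.v5.1, high in chilled TEML1ox buds, was at 126 to 180 CPM in the 4 TEML1ox libraries and 149 and 159 in WT at SD8, where the groups overlapped (log2 fold change -0.06 ± 0.13). PtXaAlbH.01G318500.v5.1 was above WT in all 4 TEML1ox libraries at SD8 too, at 54.6 to 97.3 CPM against 33.4 and 38.9 (log2 fold change 1.04 ± 0.36, edgeR adjusted p = 0.673).

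The effect of TEML1ox differed between the harvests at 2 of 27337 genes (0.00732%) in edgeR and at 418 in DESeq2. An unadjusted p under 0.05 in edgeR was reached by 3304. The 2 became 37 without TEML1_2ox replicate 2 at SD8, 29 without TEML1_1ox replicate 2 at CH2, 34 and 18 without either TEML2_2ox library at SD8, 9 without TEML2_1ox replicate 2 at SD8, 4 without TEML2_2ox replicate 1 at CH2 and 0 without WT replicate 1 at SD8. It was 1 when WT replicate 1, replicate 1 of either TEML1ox line, either TEML2_1ox library or TEML2_2ox replicate 2 was left out at CH2, or replicate 1 of TEML1_1ox, TEML1_2ox or TEML2_1ox at SD8. In PtXaAlbH.14G087000.v5.1 the fitted difference had opposite signs. At SD8 it was at 11.1 and 12.6 CPM in TEML1_1ox, 11.3 and 11.0 in TEML1_2ox and 5.44 and 6.62 in WT. After chilling it was at 13.6 and 14.3 in TEML1_1ox, 18.7 and 15.4 in TEML1_2ox and 25.1 and 30.8 in WT. The pattern was not particular to TEML1ox. The 4 TEML2ox libraries were also above WT at SD8, at 8.11 to 12.3 CPM, and below it at CH2, at 18.5 to 23.1 (edgeR adjusted p = 0.066 at CH2). In the same way, the TEML1ox libraries were above WT before chilling and below it afterwards, with no overlap at either harvest. The SD8 difference did not pass (log2 fold change 0.93 ± 0.17, edgeR adjusted p = 0.349), and the CH2 difference did (-0.85 ± 0.13, edgeR adjusted p = 0.00794), a call lost without WT replicate 1 or 2 (0.0547 and 0.128). The log2 effect at CH2 less that at SD8 was -1.78 ± 0.22 (edgeR adjusted p = 0.00445), a call lost without WT replicate 1 at SD8 (edgeR adjusted p = 0.101, the highest over its 27 alternatives).

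PtXaAlbH.11G031500.v5.1 was at fewer CPM in each CH2 library of WT and TEML1ox than in any of their SD8 libraries. These are separate samples, with CPM scaled within a harvest. At SD8 it was at 36.0 and 32.0 CPM in TEML1_1ox, 32.5 and 35.3 in TEML1_2ox and 43.2 and 35.8 in WT, and at CH2 at 14.8 and 13.5, 11.8 and 11.5, and 5.54 and 7.90. The TEML2ox libraries were at 28.9 to 34.8 CPM at SD8. At CH2 they were at 13.8 to 15.1, also above WT (log2 fold change 1.10 ± 0.14, edgeR adjusted p = 0.0036). TEML1ox and WT overlapped at SD8 and not at CH2. The log2 difference of the effects was 1.16 ± 0.18 (edgeR adjusted p = 0.0486), and it missed the threshold in 15 of 27 alternatives (edgeR adjusted p up to 0.242), 11 of which left out a single library. The harvests came as separate tables, so anything in handling that changed WT and TEML1ox unequally between them cannot be told apart from chilling.

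**Figure D4:**
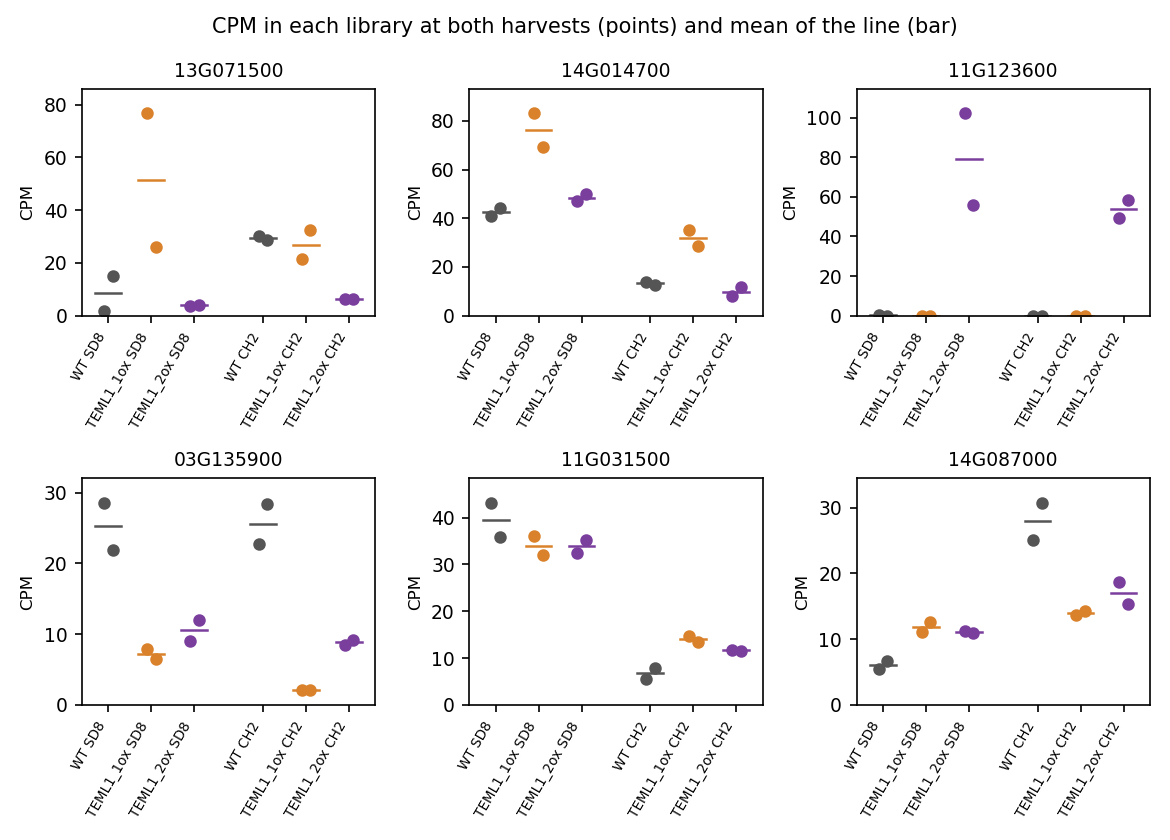
CPM from 0 on the y axis in each library (points) at SD8 and CH2 for WT (grey), TEML1_1ox (orange) and TEML1_2ox (purple), with the line mean as a bar (n = 2). The first 4 panels are genes at which the chilled lines differed, with PtXaAlbH.11G123600.v5.1 seen almost only in TEML1_2ox, and the last 2 panels are the genes whose TEML1ox effect differed between harvests. TEML2ox libraries are not drawn, and in these 2 genes they lay on the same side of WT as TEML1ox at CH2.

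Against the other construct, chilled TEML1ox buds differed at 26 genes (0.101%), 13 in each direction. The count was 2 without either WT library, replicate 2 of either TEML1ox line or either TEML2_1ox library, 3 and 10 without TEML2_2ox replicates 1 and 2, 40 without TEML1_1ox replicate 1 and 68 without TEML1_2ox replicate 1. This contrast shares the TEML1ox libraries with the contrast to WT. Of the 595 higher genes 1 was also higher than in TEML2ox, and of the 364 lower genes 6 were also lower than in TEML2ox and 1 was higher. The median log2 difference between TEML1ox and TEML2ox was 0.04 for the higher and -0.06 for the lower genes. Over WT, the median log2 fold changes of these genes in TEML2ox were 0.37 and -0.38, beside 0.41 and -0.43 in TEML1ox. Both constructs were set against the same WT libraries, and these medians are given side by side without a test. By gene, TEML2ox also passed against WT in PtXaAlbH.01G318500.v5.1, PtXaAlbH.04G069800.v5.1, PtXaAlbH.06G007700.v5.1 and PtXaAlbH.06G058900.v5.1 (edgeR adjusted p = 0.0419, 0.0254, 0.0419 and 0.0122). It did not in PtXaAlbH.08G088900.v5.1, PtXaAlbH.02G158400.v5.1, PtXaAlbH.08G122800.v5.1 and PtXaAlbH.11G079700.v5.1 (0.0879, 0.168, 0.126 and 0.529).

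The genes that set TEML1ox apart from TEML2ox included some that passed against WT as well. PtXaAlbH.10G102000.v5.1 was at 241 and 252 CPM in TEML1_1ox, 334 and 298 in TEML1_2ox, 124 to 172 in the 4 TEML2ox libraries and 135 and 155 in WT. All 4 TEML1ox libraries were above the rest, by a log2 difference of 0.90 ± 0.12 from TEML2ox (edgeR adjusted p = 0.0274) and 0.96 ± 0.15 from WT (edgeR adjusted p = 0.00834). At SD8 it was at 127 to 143 CPM in the TEML1ox libraries against 16.4 and 40.4 in WT, a log2 fold change of 2.24 ± 0.48 that did not pass (edgeR adjusted p = 0.584). PtXaAlbH.08G140300.v5.1 went the other way, at 10.7 and 13.2 CPM in TEML1_1ox, 19.1 and 17.5 in TEML1_2ox, 24.8 to 33.3 in TEML2ox and 31.0 and 26.8 in WT. It was lower than in TEML2ox by a log2 difference of -0.98 ± 0.16 (edgeR adjusted p = 0.0405) and than in WT by -0.94 ± 0.19 (edgeR adjusted p = 0.0216).

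PtXaAlbH.11G079700.v5.1, described above as lower than in WT, was also lower than in TEML2ox, by -0.96 ± 0.13 (edgeR adjusted p = 0.0274). The remaining named genes differed from TEML2ox and did not pass against WT. PtXaAlbH.09G126900.v5.1 was at 24.8 to 29.2 CPM in TEML1ox and 24.4 and 25.8 in WT, with 16.5 to 21.0 in TEML2ox (log2 difference from TEML2ox 0.55 ± 0.08, edgeR adjusted p = 0.0274). PtXaAlbH.08G098800.v5.1 was at 29.3 and 30.0 CPM in TEML1_1ox and 37.0 and 34.0 in TEML1_2ox, below 47.7 and 47.2 in WT. The TEML2ox lines differed in level, with 177 and 181 CPM in TEML2_1ox and 328 and 328 in TEML2_2ox. The log2 difference from TEML2ox was -2.96 ± 0.20 (edgeR adjusted p = 5.18e-05). Against WT the test pooled by construct did not pass (-0.54 ± 0.24, edgeR adjusted p = 0.212). In the fit by line both lines did, at -0.68 ± 0.06 and -0.42 ± 0.06 (edgeR adjusted p = 0.000772 and 0.0072). Of these 5 calls against TEML2ox, that of PtXaAlbH.08G098800.v5.1 passed in all 18 alternatives. The calls of PtXaAlbH.10G102000.v5.1, PtXaAlbH.09G126900.v5.1, PtXaAlbH.08G140300.v5.1 and PtXaAlbH.11G079700.v5.1 were lost without either WT replicate, replicate 2 of either TEML1ox line, either TEML2_1ox replicate or TEML2_2ox replicate 1 (edgeR adjusted p up to 0.108, 0.121, 0.157 and 0.115). They were also lost in limma-voom with lines as a random block (adjusted p = 0.0555, 0.0743, 0.0775 and 0.0713). With replicate numbers blocked, PtXaAlbH.09G126900.v5.1, PtXaAlbH.08G140300.v5.1 and PtXaAlbH.11G079700.v5.1 missed the threshold (edgeR adjusted p = 0.0599, 0.073 and 0.0599), and PtXaAlbH.08G140300.v5.1 did so without TEML2_2ox replicate 2 (0.0984). Against WT, PtXaAlbH.10G102000.v5.1 and PtXaAlbH.08G140300.v5.1 missed the threshold without either WT replicate (edgeR adjusted p up to 0.159 and 0.215), and PtXaAlbH.08G140300.v5.1 also in the fit of the 6 libraries alone (0.0667).

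The change of these genes from SD8 to CH2 was read in TEML2ox buds, whose libraries are not in the TEML1ox and WT contrast. Their CH2 libraries did enter the fit that estimated its spread. TEML2ox buds overexpress a related protein. At CH2 they differed from WT by median log2 fold changes of 0.37 for the higher and -0.38 for the lower genes. Their change with chilling therefore need not be that of WT buds. Of the 364 genes lower in TEML1ox than in WT, 213 (58.5%) were higher at CH2 than at SD8 in TEML2ox and 67 (18.4%) lower. Over all genes tested the shares were 37.7% and 37.4%. Of the 595 genes higher in TEML1ox, 238 (40.0%) were higher at CH2 and 220 (37.0%) lower, close to the shares over all genes. Among the 44 genes that were at least 2-fold higher in TEML1ox, however, 37 (84.1%) were lower at CH2 than at SD8 in TEML2ox and 3 were higher. In 34 of them (77.3%) the decrease was 2-fold or more, against 19.8% of all genes tested. Of the 46 genes at least 2-fold lower in TEML1ox, 16 were higher and 14 lower at CH2. The 2-fold genes had few reads, with a median of 1.66 CPM for the higher and 3.06 for the lower ones, against 12.5 over all genes tested; the part of read level in these shares was not tested.

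**Figure D5:**
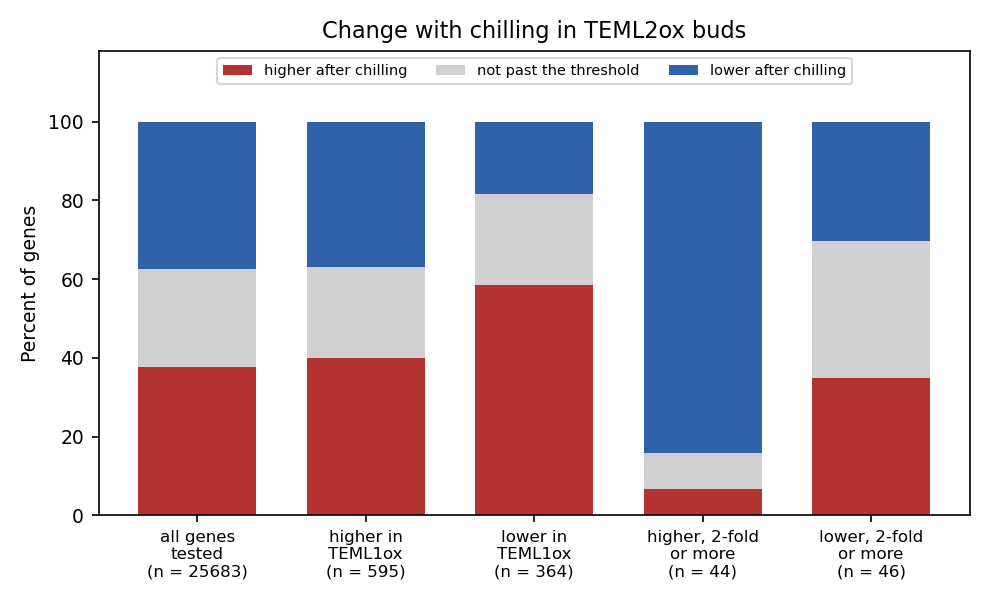
Stacked bars give the percent of genes that were higher (red), lower (blue) or not past the threshold (grey) at CH2 against SD8 in TEML2ox buds. Bars stand for all genes tested at CH2 and for the genes higher or lower in TEML1ox than in WT at CH2, in all and at 2-fold or more. The blue share is 84.1% in the 44 genes at least 2-fold higher in TEML1ox and 37.4% over all genes.

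PtXaAlbH.01G318500.v5.1 and PtXaAlbH.04G069800.v5.1, both higher in chilled TEML1ox buds, were lower at CH2 than at SD8 in TEML2ox, by log2 fold changes of -0.94 and -1.11 (edgeR adjusted p = 0.00187 and 1.71e-05). For PtXaAlbH.01G318500.v5.1 the TEML2ox lines differed at SD8, at 84.2 and 84.1 CPM in TEML2_1ox and 185 and 169 in TEML2_2ox. Its means at SD8 and CH2 were 36.1 and 33.9 CPM in WT and 74.4 and 87.1 in TEML1ox. For PtXaAlbH.04G069800.v5.1 they were 49.1 and 12.7 in WT and 68.4 and 32.0 in TEML1ox. These WT and TEML1ox changes were not tested. PtXaAlbH.06G007700.v5.1 and PtXaAlbH.08G122800.v5.1, higher in chilled TEML1ox buds, were also higher at CH2 in TEML2ox, by 1.43 and 2.22 (edgeR adjusted p = 7.65e-05 and 8.62e-12). The 4 named genes lower in chilled TEML1ox buds were all higher at CH2 in TEML2ox. The log2 fold changes were 4.27 for PtXaAlbH.11G079700.v5.1 and 2.52 for PtXaAlbH.02G158400.v5.1 (edgeR adjusted p = 1.22e-09 and 1.16e-05), and 1.5 for PtXaAlbH.06G058900.v5.1 and 1.41 for PtXaAlbH.08G088900.v5.1 (edgeR adjusted p = 0.000143 and 0.0281). The mean of PtXaAlbH.02G158400.v5.1, however, went from 51.2 CPM at SD8 to 42.1 at CH2 in WT, and from 32.3 to 16.3 in TEML1ox. WT means were higher at CH2 for PtXaAlbH.11G079700.v5.1 (52.7 and 483), PtXaAlbH.06G058900.v5.1 (450 and 686) and PtXaAlbH.08G088900.v5.1 (17.5 and 30.3). These changes in WT and TEML1ox, whose libraries enter the contrast, were not tested.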

How the data were processed

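RNA-seq of apical buds was analysed from 2 deposited tables, 1 per harvest, which hold whole-number read counts for 31823 genes. Per the submitters' processing notes, HISAT2 was among the authors' tools. The counting program, genome build, use of strand and filters were not given in the labels used here, so reads of near-identical or overlapping genes may be split or lost. The CH2 libraries compared held 37327490 to 38978339 counts. Groups came from the titles. The 3 replicate pairs differed beyond sampling noise (chi-square per degree of freedom 7.32 to 28.2, taken on genes whose counts summed to 20 or more). Names were not paired with identifiers, so pathway lists and tissue markers could not be run.

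Counts were tested with edgeR 4.0.16 in R 4.3.3 (filterByExpr, TMM, quasi-likelihood F test, Benjamini-Hochberg adjustment over all genes tested, threshold 0.05). The 10 CH2 libraries were fitted in 3 groups by construct or in 5 by line, and all 20 by construct and harvest for the difference between harvests and for chilling in TEML2ox. SEs are the absolute log2 fold change over the square root of F. CPM is counts per 1000000 after TMM, scaled within a harvest. The scripts were tested on simulated data. Alternatives were RLE scaling, DESeq2 1.42.0, limma-voom 3.58.1, other low-count filters, each library left out, a block for the replicate number, lines as groups or as a random block, and a fit of the 6 libraries alone.

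Named genes passed the threshold with lines pooled and in each line, in 1 direction, with no overlap between the libraries and a mean log2 CPM of at least 3. The 2 in each direction with the largest log2 fold change, and the 2 with the largest CPM difference, are named. For other contrasts up to 2 past the threshold at that level are named in each direction. The comparison, lists and rules were chosen with earlier results of these data known.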

Additional observations from a re-analysis of the deposited data

Results flagged for a closer look

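In the 4 chilled TEML1ox libraries, PtXaAlbH.04G069800.v5.1 was at 49.5 CPM in TEML1_1ox replicate 1, far from the other 3. At SD8, PtXaAlbH.02G158400.v5.1 was at 66.5 CPM in TEML1_2ox replicate 1, far above the other 3 TEML1ox libraries. These are 2 of 72 groups of 4 libraries looked at, and chance alone would set apart about 1 in 20.

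The TEML1ox lines differed at CH2, by the direct test, in PtXaAlbH.13G071500.v5.1 (log2 difference of TEML1_1ox from TEML1_2ox 2.10), PtXaAlbH.14G014700.v5.1 (1.69) and PtXaAlbH.03G135900.v5.1 (-2.06), and PtXaAlbH.11G123600.v5.1 was at least 1390-fold higher in TEML1_2ox than in TEML1_1ox. The TEML1ox effect differed between harvests, by the interaction test, in PtXaAlbH.11G031500.v5.1 (1.16) and PtXaAlbH.14G087000.v5.1 (-1.78).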

How the results depend on the processing

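The count of 959 was 2005 with DESeq2, 1899 with each line as its own group, 578 with a replicate block, 323 in limma-voom when lines were a random block and 241 in the fit of the 6 libraries. It ran from 11 to 1373 with a library left out. The 543 genes shared by the lines were 344 under the block, 256 in the 6 libraries and 29 to 610 with a library left out. The 20 genes between the lines were 487 with DESeq2, 42 with no low-count filter, 7 under the block and 3 to 97 with a library left out. At SD8 the 0 genes were 71 with DESeq2, 73 by line and 0 to 1 with a library left out. The 2 genes that differed between harvests were 418 with DESeq2, 341 by line, 1 with RLE scaling, limma-voom, the 50-count filter or the block, and 0 to 37 with a library left out. The 26 genes against TEML2ox were 393 with DESeq2, 199 by line, 10 under the block, 2 in limma-voom when lines were a random block and 2 to 68 with a library left out. For the 24 named results, 459 values were read over the alternatives, many of them from the same refit. None changed sign, which adds no support, since the genes were named for large differences in these same values. The call was kept in 355. In the fit without 1 WT library the lone one is assumed to vary like the other groups.

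The labels do not say that replicate numbers pair libraries. Differences between replicates 1 and 2 correlated across genes at r = -0.19 between WT and TEML1_1ox, -0.26 between WT and TEML1_2ox and 0.09 between the TEML1ox lines, so the block is not read as a pairing.

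With 2 WT libraries and no second WT line, a deviation of the WT pair cannot be told apart from an effect of TEML1. Lines pooled as replicates make p-values count libraries of a line as independent.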
